A study of Mus musculus with 36 samples.

Results

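A set of 44 genes of NIH-3T3 cells, an immortalised line of mouse embryo fibroblasts, was chosen by its answer to interferon gamma (IFN gamma) without a matching answer to interferon alpha (IFN alpha). The arrays measured 18193 genes through a probe set with a single gene symbol. Of these, 152 had a group mean of log2 signal at least 1 higher with IFN gamma than with mock in both of 2 labelling windows, 30-60 min and 150-180 min after treatment. Among them 48 differed by less than 0.5 between IFN alpha and mock in both windows, and 45 of these reached a mean of at least 5 with IFN gamma at 150-180 min. Genes that belong to better known groups were left out by name (Hk2, Icam1, Sod2, Ccl11, Cish, Atf3 and the Socs genes), which removed 1 gene that met the thresholds, Atf3. Since values of the 30-60 min and 150-180 min windows chose the genes, those values are given as a description with no test. Tests were made on the 0-30 min and 0-60 min windows, whose arrays the thresholds did not use. The 0-60 min window spans the 30-60 min interval in which the genes were chosen, so its counts were favoured by the choice.

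The data were 36 Affymetrix arrays of newly transcribed RNA. Cells grown to 80% density received fresh medium with IFN gamma at 100 U/ml, IFN alpha at 100 U/ml or mock. The RNA made in a set window carried 4-thiouridine (4sU), a uridine analogue taken up into growing transcripts, which lets new RNA be measured apart from older RNA. The windows ran over 0-30, 30-60 and 150-180 min at 500 µM 4sU and over 0-60 min at 200 µM, which gave 12 groups of 3 arrays. The labels number the arrays but do not say that they came from separate cultures, nor whether windows share cultures, so p-values measure the spread between arrays, which may be technical. Values are log2 signals after GCRMA, a background correction and normalization of Affymetrix probes, and every difference below is a difference of log2 values with its standard error (SE), n = 3 arrays per group. In whole cultures, fewer responding cells and less RNA per responding cell cannot be told apart.

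As background, IFN gamma binds its own receptor and activates the kinases JAK1 and JAK2, and the signal reaches genes through GAS elements of the form TTCNNNGAA. IFN alpha uses another receptor and acts mainly through ISGF3, a complex that holds IRF9 and binds ISRE elements, whose core holds repeats of GAAA. Both interferons induce an overlapping set of antiviral and antigen-presentation genes, and IFN gamma is also known for the activation of macrophages and of MHC class II through the transactivator CIITA.

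The proximal promoters of the set held few exact copies of these motifs. RefSeq promoter windows (GRCm38.p6, from 250 bases before to 50 bases after the annotated start, 300 bases in all) were found for 38 of the 44 genes and searched on both strands for GAS (TTCNNNGAA), ISRE (GAAANNGAA) and the NF-kB motif kB (GGGNNTTCC). GAS was found in 1 of 38 genes (2.63%), against 7.91% of the 7826 tested genes with a window and 9.55% of all 27025 genes with one. ISRE was likewise found in 1 of 38 (2.63%), against 8.25% of tested genes and 9.76% of all genes. The kB motif was found in 4 (Ccsap, Pim3, Pkig and Txnip, 10.53%), against 8.93% of tested genes and 6.58% of all genes. Genes can have several windows, and no window of the set held more than one of the 3 motifs. These shares rest on few genes, and no difference to the other genes was tested. The windows of the set also had a higher median content of G and C, 64.7% against 61.3% in those of tested genes. A match is a run of letters and not a shown binding site, and sites outside these windows were not searched. The 2 windows with an interferon motif, the 2 windows with a kB motif among genes that rose within 30 min, and the window of the gene with the largest early change are printed 5′ to 3′ in the gene's direction, with the matches in capitals. They are Tnfrsf1a (chr6:125349473-125349772, plus strand, GAS beginning 244 bases before the start), Tbc1d2b (chr9:90270720-90271019, minus strand, ISRE beginning 205 bases before it), Pim3 (chr15:88861944-88862243, plus strand, kB beginning 136 bases before it), Txnip (chr3:96557707-96558006, plus strand, kB beginning 22 bases after it) and 9330175E14Rik (chr8:94435054-94435353, minus strand, no match).
Tnfrsf1a: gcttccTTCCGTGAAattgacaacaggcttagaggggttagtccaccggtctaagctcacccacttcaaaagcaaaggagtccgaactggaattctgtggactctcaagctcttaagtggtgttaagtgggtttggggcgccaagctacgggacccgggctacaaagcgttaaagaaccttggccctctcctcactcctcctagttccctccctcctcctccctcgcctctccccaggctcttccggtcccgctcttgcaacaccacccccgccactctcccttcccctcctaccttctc
Tbc1d2b: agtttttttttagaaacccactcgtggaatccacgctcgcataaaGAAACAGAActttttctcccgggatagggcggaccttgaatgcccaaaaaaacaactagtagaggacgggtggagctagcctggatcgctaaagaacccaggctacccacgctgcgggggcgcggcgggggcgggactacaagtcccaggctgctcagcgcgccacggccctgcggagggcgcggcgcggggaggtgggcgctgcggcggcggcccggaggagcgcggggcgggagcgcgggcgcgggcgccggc
Pim3: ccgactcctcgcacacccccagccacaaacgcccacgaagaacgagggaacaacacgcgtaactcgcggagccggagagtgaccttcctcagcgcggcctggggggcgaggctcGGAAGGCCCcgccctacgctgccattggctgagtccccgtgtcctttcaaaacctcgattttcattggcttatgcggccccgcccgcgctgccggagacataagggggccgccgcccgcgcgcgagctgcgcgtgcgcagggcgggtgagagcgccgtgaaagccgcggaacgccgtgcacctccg
Txnip: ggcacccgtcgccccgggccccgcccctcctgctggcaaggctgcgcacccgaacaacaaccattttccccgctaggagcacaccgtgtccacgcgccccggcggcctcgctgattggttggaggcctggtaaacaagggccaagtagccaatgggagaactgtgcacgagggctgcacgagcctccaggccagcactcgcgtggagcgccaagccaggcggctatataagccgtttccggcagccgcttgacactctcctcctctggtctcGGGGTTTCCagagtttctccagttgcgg
9330175E14Rik: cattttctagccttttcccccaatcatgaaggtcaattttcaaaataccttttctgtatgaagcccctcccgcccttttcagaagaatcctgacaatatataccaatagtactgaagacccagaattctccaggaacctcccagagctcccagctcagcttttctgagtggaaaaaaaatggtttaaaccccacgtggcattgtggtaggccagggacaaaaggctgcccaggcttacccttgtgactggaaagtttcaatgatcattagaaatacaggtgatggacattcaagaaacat

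The cells carried the label's identity: all 11 measured fibroblast markers passed the filter on low values (log2 over 4 in at least 3 arrays), with a median of 11.78 and Vim, an intermediate filament gene, at 13.15. Of 12 macrophage and leukocyte markers only Cd14 (6.17) passed it, of 7 epithelial and 7 endothelial markers 0 did (highest Epcam at 3.2 and Tek at 2.56), and of 9 adipocyte and muscle markers 2 did (highest Lpl at 7.58). Irf1, an interferon-induced transcription factor, was 5.14 ± 0.19 higher with IFN gamma than with mock at 0-30 min and 2.15 ± 0.19 higher with IFN alpha (limma, adjusted p = 4.4e-19 and 2.9e-09). Ifit1, an antiviral gene of the type I response, was 0.48 ± 0.50 higher with IFN gamma in that window (adjusted p = 1) and 4.34 ± 0.50 higher with IFN alpha (adjusted p = 7.2e-07), and Actb differed by 0.07 ± 0.12 with IFN gamma (adjusted p = 1). Mock array 1 of the 0-60 min window stood apart: it correlated with its mates at 0.91 and 0.911, while they correlated with each other at 0.987, and its 3′ minus 5′ Gapdh signal was 2.67, against -0.31 and -0.3 in the mates. Differences between IFN gamma and mock in that window are also given without it where a call changed or the value moved by over 1.5 times.

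All 44 genes passed the filter and were among the 9549 genes tested, and each passed it on the arrays of 0-30 and 0-60 min alone. On mock and IFN alpha arrays alone 41 passed, while 9330175E14Rik, AA467197 and Tubb3 passed only with their IFN gamma arrays. Mock means lay under 4 in 5 of the 44 genes at 0-30 min, 5 at 0-60 min, 9 at 30-60 min and 4 at 150-180 min, and for these the difference is over background rather than over a measured level. RefSeq classes 41 of the genes as protein coding, 9330175E14Rik and 6430590A07Rik as lncRNA, and Zfp862-ps as a transcribed pseudogene.

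In the windows that chose them, the genes had a median difference between IFN gamma and mock of 1.64 at 30-60 min (range 1.03 to 3.44) and 1.46 at 150-180 min (1.00 to 4.23). The median between IFN alpha and mock was 0.20 and 0.02 (ranges -0.31 to 0.49 and -0.46 to 0.49). Just inside the IFN gamma minimum lay Cdc42se2 (1.003 at 150-180 min), Kitl (1.007) and Zfp862-ps (1.007), and just outside it Pros1 (0.981 at 150-180 min), Mknk1 (0.933) and Hoxd9 (0.921 at 30-60 min). At the IFN alpha limit, Ttc39b (0.491 at 150-180 min), Pgs1 (0.489 at 30-60 min) and Tnfrsf1a (0.484 at 30-60 min) were inside, and Mtfr2 (0.513), Dact1 (0.515) and Cblb (0.515), all at 30-60 min, were outside. Tubb3, with a level of 5.07, was just above the minimum level, and Rnf122 (4.69) and Arntl2 (4.61) were just below it.

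**Figure D1:**
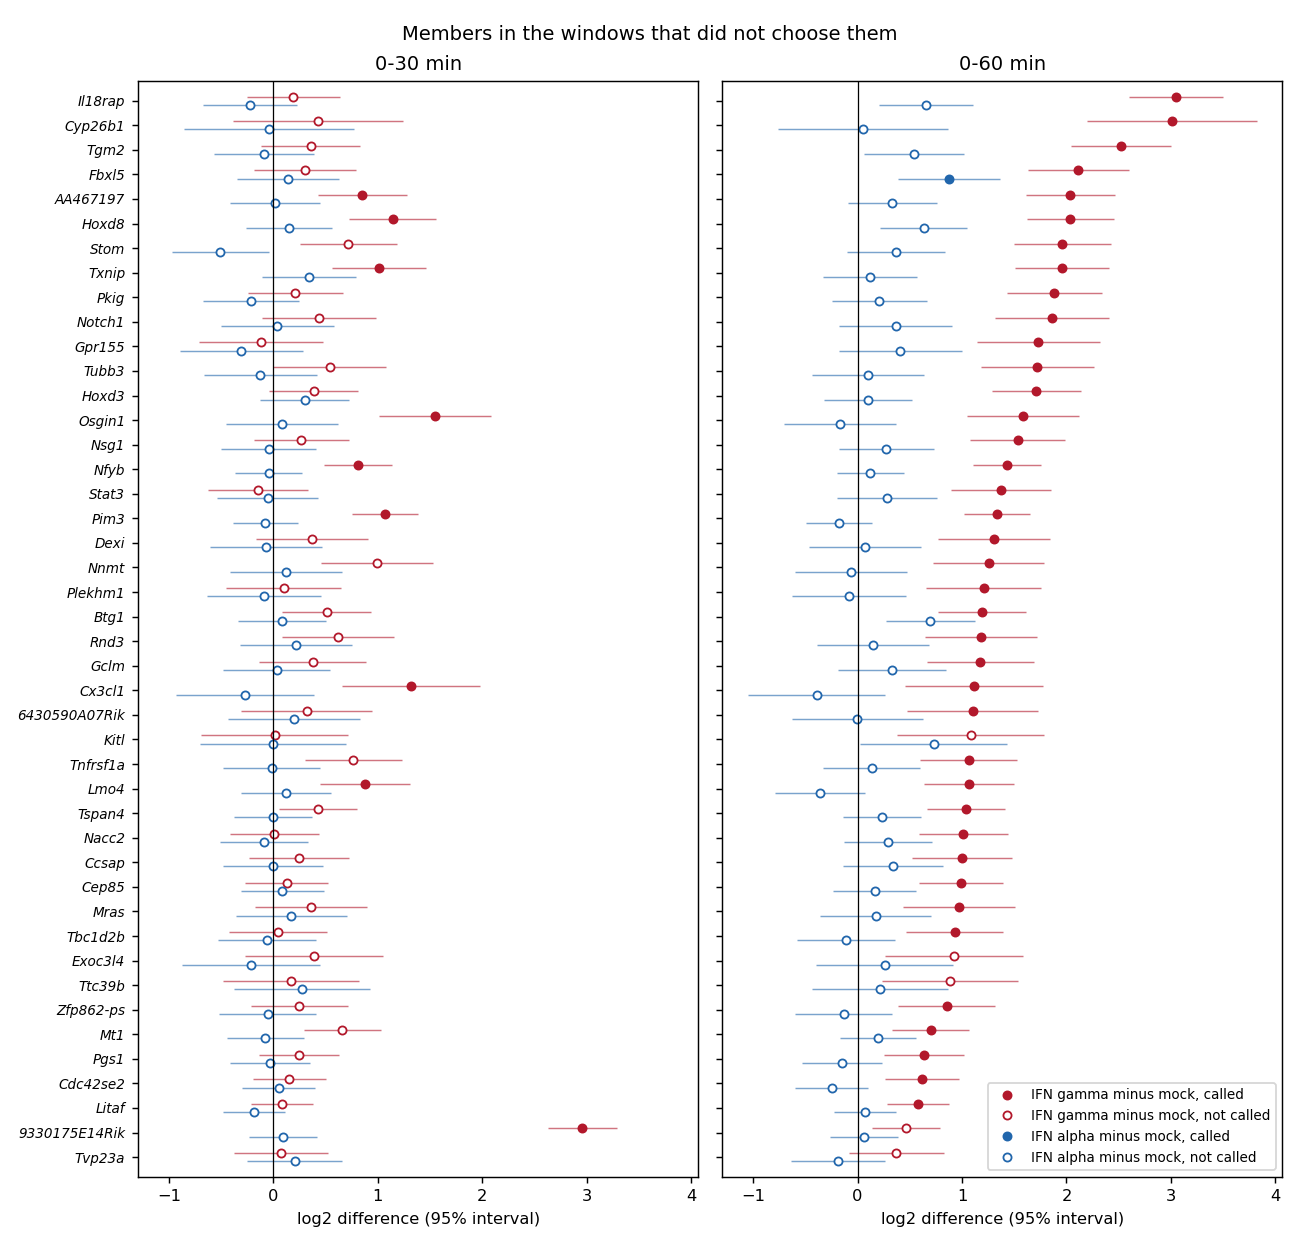
Log2 difference to mock of each of the 44 genes at 0-30 min (left) and 0-60 min (right), for IFN gamma (red) and IFN alpha (blue). Points are differences of 3 against 3 arrays, lines 95% intervals of the fit, filled points passed an adjusted p under 0.05: 9 red points at 0-30 min and 39 at 0-60 min, against 0 and 1 blue points. Genes are ordered by the IFN gamma difference at 0-60 min.

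Transcripts made within the first 30 min already answered to IFN gamma in part of the set. Compared with mock at 0-30 min, 9 of the 44 genes were higher with IFN gamma (9330175E14Rik, AA467197, Cx3cl1, Hoxd8, Lmo4, Nfyb, Osgin1, Pim3 and Txnip), against 0.754% of all 9549 genes tested. None was lower, against 0.0419% of all genes. The call was a Benjamini-Hochberg adjusted p under 0.05 over all genes in limma's two-sided test. At an unadjusted p under 0.05, 16 of the genes were higher, against 1.81% of all genes, and 0 lower. 9330175E14Rik, AA467197 and Tubb3 passed the filter only with IFN gamma arrays and so had to differ in some window; without these 3 genes 7 of 41 were called. The median difference over the 44 genes was 0.37, against -0.02 over all genes, and in 24 genes every IFN gamma array lay above every mock array, as it did in 6.08% of all genes. With the array number as a block, 12 genes were called, against 1.12% of all genes, the additional ones being Mt1 (adjusted p = 0.001 with the block, 0.1 without), Nnmt (0.047 and 0.078) and Tnfrsf1a (0.00023 and 0.2).

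9330175E14Rik, a lncRNA with no role known here, had the largest early difference. Its log2 signals at 0-30 min were 5.16, 5.62 and 5.39 with IFN gamma, 2.67, 2.46 and 2.44 with IFN alpha, and 2.44, 2.44 and 2.42 with mock. The IFN gamma arrays were far above the others, which lay under the filter, and the difference to mock was 2.96 ± 0.16. In the RefSeq gene table it overlaps Nlrc5, a regulator of MHC class I genes. The tested probe set of Nlrc5, looked at after its neighbour's values were seen, differed by -0.01 ± 0.13 between IFN gamma and mock at 0-30 min (adjusted p = 1).

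Osgin1, an oxidative stress response gene, had signals of 7.74, 7.58 and 7.55 with IFN gamma, 6.32, 6.18 and 5.99 with IFN alpha, and 6.03, 6.29 and 5.92 with mock at 0-30 min. Its IFN gamma arrays did not overlap the other groups, and the difference to mock was 1.55 ± 0.26 (2.92-fold, adjusted p = 0.00046). For Hoxd8, a homeobox transcription factor of the Hoxd cluster, the arrays read 8.99, 8.76 and 9.03 with IFN gamma, 8.0, 7.93 and 7.88 with IFN alpha, and 7.86, 7.71 and 7.78 with mock. Again the IFN gamma arrays stood above all others, by 1.15 ± 0.20 over mock (adjusted p = 0.00093). Pim3, a serine/threonine kinase of the Pim family, had 10.92, 10.66 and 10.77 with IFN gamma, 9.88, 9.48 and 9.55 with IFN alpha, and 9.79, 9.52 and 9.83 with mock. Its difference to mock was 1.07 ± 0.15 (adjusted p = 3.1e-05), and these 4 calls held when any 1 array of the groups compared was left out.

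The other early calls were less stable. Cx3cl1, a membrane-bound chemokine also called fractalkine, had 7.33, 6.82 and 7.13 with IFN gamma, 5.72, 5.40 and 5.40 with IFN alpha, and 5.77, 5.66 and 5.91 with mock at 0-30 min. The IFN gamma arrays lay above all others, while IFN alpha and mock overlapped, and the difference to mock was 1.32 ± 0.32 (adjusted p = 0.04), but the call was lost when any 1 of the 6 arrays was left out. The same was true of Lmo4, a LIM-domain transcriptional cofactor (0.88 ± 0.21, adjusted p = 0.035). AA467197 (0.85 ± 0.21), Txnip, an inhibitor of thioredoxin and of glucose uptake (1.01 ± 0.22, adjusted p = 0.014), and Nfyb, a subunit of the CCAAT-binding factor NF-Y (0.81 ± 0.16, adjusted p = 0.0038), lost their calls in 5, 3 and 2 of the 6.

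At the low end of the 0-30 min window stood Stat3, Gpr155 and Nacc2. Stat3, the transcription factor of IL-6 family cytokines, had 9.64, 9.36 and 9.38 with IFN gamma, against 9.66, 9.51 and 9.66 with mock, a difference of -0.15 ± 0.24 (adjusted p = 1). Gpr155, a multi-pass membrane protein, had 4.92, 4.85 and 4.74 with IFN gamma, against 4.91, 5.23 and 4.72 with mock, and Nacc2, a transcriptional repressor, had 6.01, 5.88 and 5.78 against 6.02, 5.84 and 5.78. In all 3 genes the groups overlapped. For Stat3 the probe sets disagreed: another one, with a mean of 8.34, was 1.85 higher with IFN gamma at 0-30 min (adjusted p = 0.00015) and 2.12 higher at 0-60 min (adjusted p = 4.1e-06). A further one, with a mean of 9.07, differed by -0.07 and 1.23 (adjusted p = 1 and 0.00031), and one with a mean of 3.33 by -0.03 and 0.20 (adjusted p = 1 and 0.65).

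**Figure D2:**
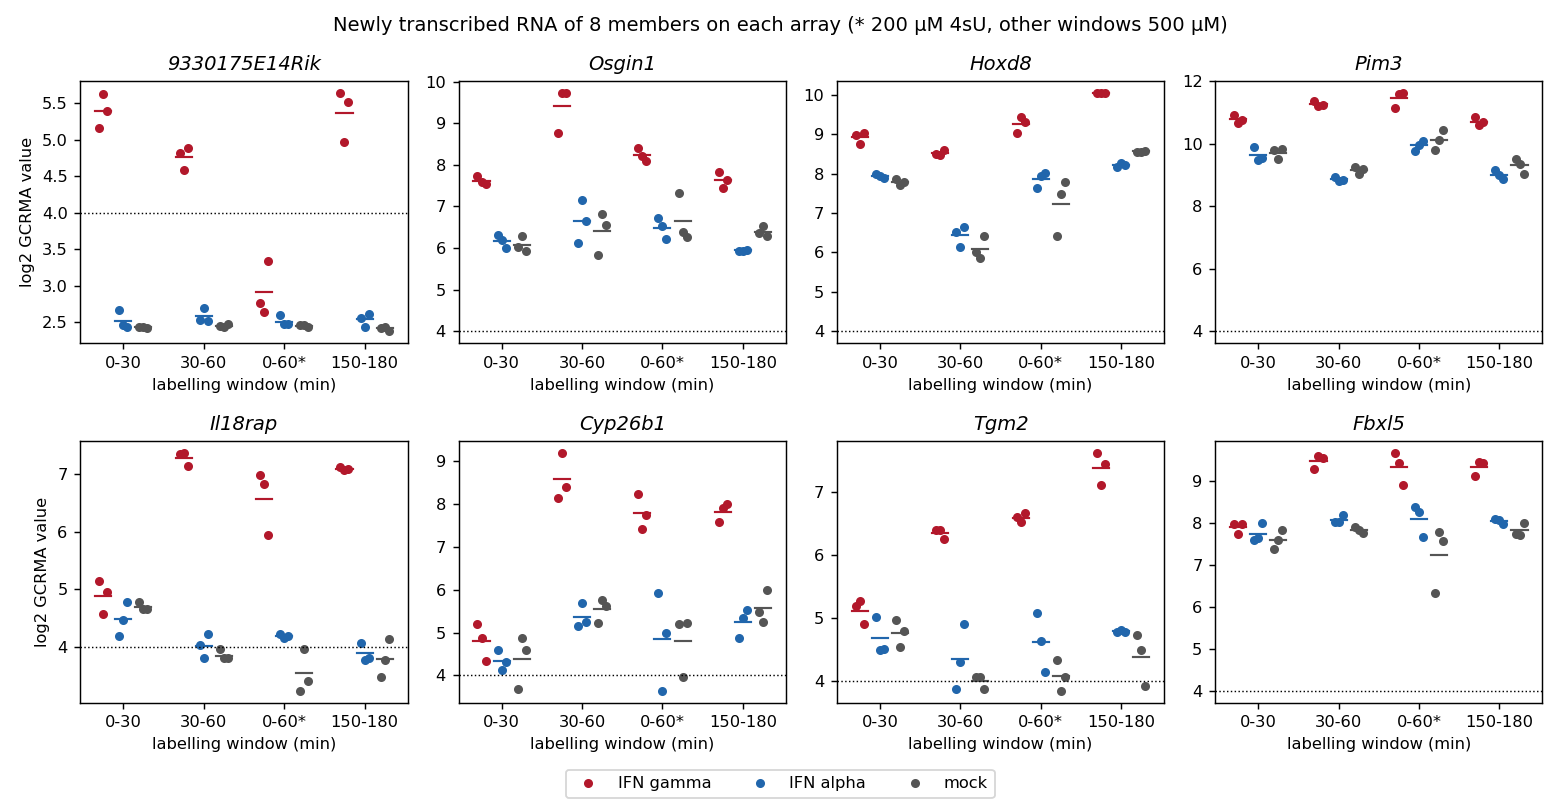
Log2 GCRMA signal (y axis) of 8 of the genes on each of 36 arrays by labelling window in min (x axis), with IFN gamma in red, IFN alpha in blue and mock in grey. Points are arrays, short lines group means of 3 arrays, and the dotted line the filter at 4. The y axes differ and do not start at 0. IFN alpha and mock points lie close together in most panels while the IFN gamma points of 9330175E14Rik lie above 4 in every window except 0-60 min.

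Over the 0-60 min window nearly the whole set was higher with IFN gamma. Of the 44 genes 39 were called higher than mock, against 3.83% of all genes tested, and 0 lower, against 2.9%. The exceptions were Exoc3l4, Kitl, Ttc39b, Tvp23a and 9330175E14Rik, and 43 of the 44 genes were higher at an unadjusted p under 0.05, against 10.5% of all genes. Without the 3 genes that passed the filter only with IFN gamma arrays, 37 of 41 were called. The median difference was 1.19 (range 0.37 to 3.05), against -0.05 over all genes. In 36 genes every IFN gamma array lay above every mock array, as in 6.05% of all genes, and without mock array 1 the count was 42, against 11.6% of all genes. Without that array 37 genes were called, against 3.19% of all genes, Ccsap (adjusted p = 0.08) and 6430590A07Rik (0.086) having lost the call, while Pgs1 moved to 1.02 and Btg1 to 0.75 with their calls kept. A fit on the 9 arrays of this window alone called 18, against 1.11% of all genes. The like fit at 0-30 min called 10, against 0.984% of all genes, where the main fit called 9. The median standard deviation within groups at 0-60 min was 0.393 (mock), 0.236 (IFN alpha) and 0.215 (IFN gamma). At 0-30 min it was 0.145, 0.158 and 0.127. The main fit takes the same spread per gene for all groups, so it can understate the spread at 0-60 min and favour calls there. In the block fit 43 were called, against 8.59% of all genes, the exception being Tvp23a. Exoc3l4 (adjusted p = 0.01 with the block, 0.08 without), Kitl (0.015 and 0.052), Ttc39b (0.0018 and 0.093) and 9330175E14Rik (0.045 and 0.079) were the additional ones.

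Il18rap, the accessory chain of the interleukin 18 receptor, had the largest 0-60 min difference. Its signals were 6.99, 6.83 and 5.94 with IFN gamma, 4.23, 4.16 and 4.19 with IFN alpha, and 3.24, 3.96 and 3.41 with mock. The IFN gamma arrays lay well above both other groups, and the difference to mock was 3.05 ± 0.22 (adjusted p = 4.4e-12) over a mock mean under the filter. Cyp26b1, a cytochrome P450 that breaks down retinoic acid, had 8.25, 7.42 and 7.74 with IFN gamma, 5.92, 3.64 and 4.99 with IFN alpha, and 5.20, 3.96 and 5.22 with mock. Spread among the IFN alpha and mock arrays was wide, but no IFN gamma array came near them, and the difference to mock was 3.01 ± 0.40 (adjusted p = 1.8e-06).

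Tgm2, tissue transglutaminase, had signals of 6.60, 6.52 and 6.66 with IFN gamma, 5.08, 4.63 and 4.13 with IFN alpha, and 4.32, 3.84 and 4.06 with mock at 0-60 min, a difference to mock of 2.52 ± 0.23 (adjusted p = 1.4e-09). AA467197, which RefSeq also lists as Nmes1, had 4.67, 4.64 and 5.03 with IFN gamma, 2.80, 3.61 and 2.82 with IFN alpha, and 2.78, 2.67 and 2.78 with mock, with mock and IFN alpha under the filter and a difference to mock of 2.04 ± 0.21. In both genes the 3 groups kept IFN gamma on top without overlap. Fbxl5, the iron-sensing F-box protein that targets IRP2 for degradation, had 9.69, 9.43 and 8.92 with IFN gamma, 8.40, 8.26 and 7.66 with IFN alpha, and 6.34, 7.78 and 7.57 with mock. Its difference between IFN gamma and mock was 2.11 ± 0.24 (adjusted p = 9.1e-08), and mock array 1 was the lowest of the 9.

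The smallest 0-60 min differences were those of Tvp23a, 9330175E14Rik and Litaf. Tvp23a, a Golgi membrane protein gene, had 4.78, 3.96 and 4.46 with IFN gamma, against 4.08, 3.90 and 4.11 with mock, a difference of 0.37 ± 0.22 (adjusted p = 0.32) with overlapping groups. The arrays of 9330175E14Rik read 2.77, 2.64 and 3.34 with IFN gamma, against 2.46, 2.46 and 2.43 with mock, all under the filter. Litaf, a regulator of endosomal sorting, had 10.26, 10.77 and 10.39 with IFN gamma, against 10.16, 9.90 and 9.62 with mock, and was called (0.58 ± 0.15, adjusted p = 0.011). Kitl, the ligand of the receptor KIT, was singled out after its values were seen: it had 10.20, 10.51 and 10.13 with IFN gamma, against 7.52, 9.99 and 10.07 with mock. Without mock array 1 its difference was 0.25 ± 0.18 (adjusted p = 0.62), against 1.08 ± 0.34 with it. Over all arrays another Kitl probe set, with a mean of 3.92, was called (1.21, adjusted p = 0.017). Those with means of 4.5 and 8.42 were not (0.37 and 0.80, adjusted p = 0.25 and 0.076).

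The share of these genes called with IFN alpha in the tested windows was near that of all genes. Both interferons were compared with the same mock arrays. Compared with mock, 0 of the 44 were higher with IFN alpha at 0-30 min (0 at an unadjusted p under 0.05, limma, with Stom lower at that level), against 0.377% of all genes, and 1 was at 0-60 min (6 at an unadjusted p under 0.05, against 10.5% of all genes), against 1.91%. The median difference was -0.01 at 0-30 min and 0.16 at 0-60 min, against -0.03 and 0.03 over all genes. Fbxl5 was the gene called (0.88 ± 0.24, adjusted p = 0.047), and without mock array 1 its difference was 0.43 ± 0.19 (adjusted p = 0.65), while Tspan4, a tetraspanin, was then called (0.58 ± 0.14, adjusted p = 0.019). With the array number as a block, Btg1 (0.70 ± 0.14, adjusted p = 0.0025) and Hoxd8 (0.64 ± 0.14, adjusted p = 0.0069) were called as well, 3 in all, against 3.76% of all genes. Leaving out another mock array gave 4 or 5 calls, and leaving out IFN alpha array 1 or 2 gave 0. Shares of all genes in these fits are not given, so a change in the whole fit cannot be told apart. A missing call does not show that IFN alpha left a gene unmoved: the 95% intervals of the 44 genes reached 0.92 at 0-30 min and 1.43 at 0-60 min.

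The interferons were also compared directly, with the spread estimated over all 36 arrays. IFN gamma was higher than IFN alpha in 8 of the 44 genes at 0-30 min (9330175E14Rik, Cx3cl1, Hoxd8, Mt1, Nfyb, Osgin1, Pim3 and Stom), against 0.524% of all genes tested, and in 34 at 0-60 min, against 1.65%. None was lower in either window, against 18 of all 9549 genes at 0-30 min and 225 at 0-60 min. With so small a part of all genes lower, the lack of lower genes says little about the set. The median difference was 0.41 at 0-30 min and 1.17 at 0-60 min, against 0.01 and -0.07 over all genes. Stom, which encodes the membrane protein stomatin, had 6.79, 6.92 and 6.43 with IFN gamma, against 5.83, 5.11 and 5.53 with IFN alpha at 0-30 min, groups that did not overlap, and the difference was 1.22 ± 0.23 (adjusted p = 0.0023). Mt1, a metallothionein, had 12.74, 12.59 and 12.51 with IFN gamma, against 12.16, 11.93 and 11.56 with IFN alpha (0.74 ± 0.18, adjusted p = 0.044), and this call was lost in 5 of 6 fits that left out 1 array. Hoxd8 lost its call in 3 of the 6 and Cx3cl1 in 1. With the array number as a block, 11 genes were called at 0-30 min, against 0.796% of all genes, with Lmo4 (adjusted p = 0.015 with the block, 0.13 without), Tnfrsf1a (0.0002 and 0.18) and Txnip (0.00047 and 0.41) added. Without the 3 genes that passed the filter only with IFN gamma arrays, 7 of 41 were called at 0-30 min and 32 of 41 at 0-60 min. The 10 genes without a call at 0-60 min were 9330175E14Rik, Btg1, Ccsap, Exoc3l4, Gclm, Kitl, Mras, Mt1, Ttc39b and Tvp23a, with differences of 0.36 to 0.84, and 6 of these were called with the block, 40 in all, against 3.08% of all genes.

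**Figure D3:**
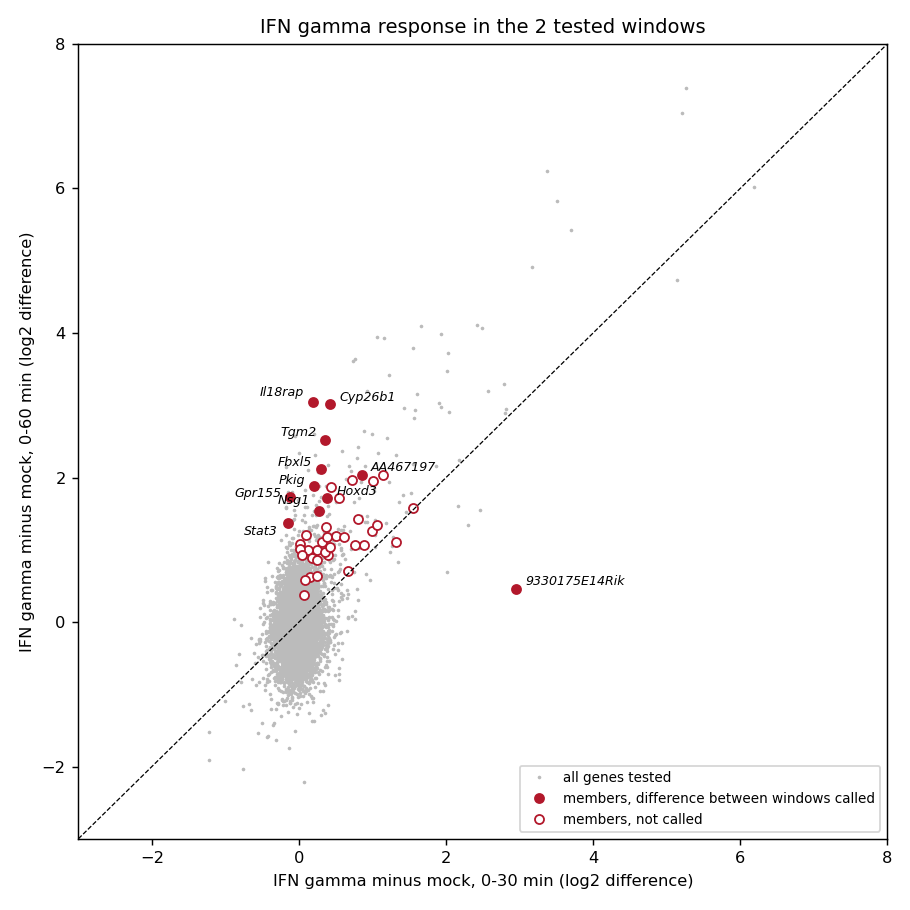
Difference between IFN gamma and mock at 0-60 min (y axis) against 0-30 min (x axis), both in log2, for all 9549 genes tested (grey) and the 44 genes of the set (red circles). Filled circles mark the 11 genes whose 2 differences differed at an adjusted p under 0.05, and the dashed line marks equality. 9330175E14Rik is the filled circle below the line, and the other 10 lie above it.

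How the IFN gamma difference changed between the tested windows was tested after the data were seen, as the 0-60 min difference minus the 0-30 min one in the same fit. The windows also differ in 4sU concentration and labelling time, and the 0-60 min window contains the first 30 min. It also contains the 30-60 min interval, where the thresholds asked for a difference of at least 1, while they set none at 0-30 min. A larger difference at 0-60 min was therefore favoured by the choice of genes. The difference was larger at 0-60 min in 10 of the 44 genes, against 0.681% of all genes, and smaller in 1, against 0.189%. Il18rap had the largest rise, its difference being 0.19 ± 0.22 at 0-30 min and 3.05 ± 0.22 at 0-60 min, which differ by 2.85 ± 0.31 (adjusted p = 3.8e-07). Cyp26b1 (2.58 ± 0.56, adjusted p = 0.013), Tgm2 (2.16 ± 0.33, adjusted p = 0.00015), Gpr155, Fbxl5, Pkig, Stat3, Hoxd3, Nsg1 and AA467197 followed. For Stat3 this rests on the probe set used: another was already 1.85 higher at 0-30 min and 2.12 higher at 0-60 min. A further Stat3 probe set differed by -0.07 and 1.23. 9330175E14Rik alone was smaller at 0-60 min, by -2.49 ± 0.23. Without the 3 genes that passed the filter only with IFN gamma arrays, the 10 became 9 of 41. The count of 10 became 16 without mock array 1 of the 0-60 min window, against 0.859% of all genes. It was 19 with the array number as a block, against 1.8%. It was 6 without IFN gamma array 3 or without mock array 2 at 0-30 min, fits for which the share of all genes is not given.

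Across the 3 windows of 30 min each, described without a test, the IFN gamma difference was largest at 0-30 min in 1 gene (9330175E14Rik), at 30-60 min in 29 and at 150-180 min in 14. Some of these places rest on gaps under the SE and are near ties. 9330175E14Rik had 2.958 at 0-30 min and 2.955 at 150-180 min, and Hoxd3 had 2.317 at 30-60 min and 2.33 at 150-180 min. At 0-30 min the IFN gamma difference was at least 1 in 6 genes, between 0.5 and 1 in 10 and under 0.5 in 28. AA467197 had 0.85, 2.10 and 4.23 in the 3 windows, Tvp23a 0.08, 1.31 and 2.78, and Notch1, the transmembrane receptor of Delta and Jagged ligands, 0.44, 1.77 and 2.59. In these genes the last window held the largest difference. In others the middle one did: Txnip had 1.01, 3.10 and 1.65, Osgin1 1.55, 3.01 and 1.24, and Nfyb 0.81, 2.48 and 1.16. A smaller difference did not always mean less RNA with IFN gamma. Txnip averaged 11.15, 10.88 and 12.16 with IFN gamma over the 3 windows, against 10.14, 7.77 and 10.51 with mock, so that its mock level was lowest at 30-60 min. The mock mean was lower at 30-60 min than in both other windows in 21 of the 44 genes (47.7%), against 70.0% of all genes, and 17 of the 21 had their largest difference there. The mean with IFN gamma was higher at 150-180 than at 30-60 min in 22 of the 44. The share of all genes is not given, but their median level with IFN gamma also rose, from 6.51 at 30-60 min to 7.07 at 150-180 min.

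**Figure D4:**
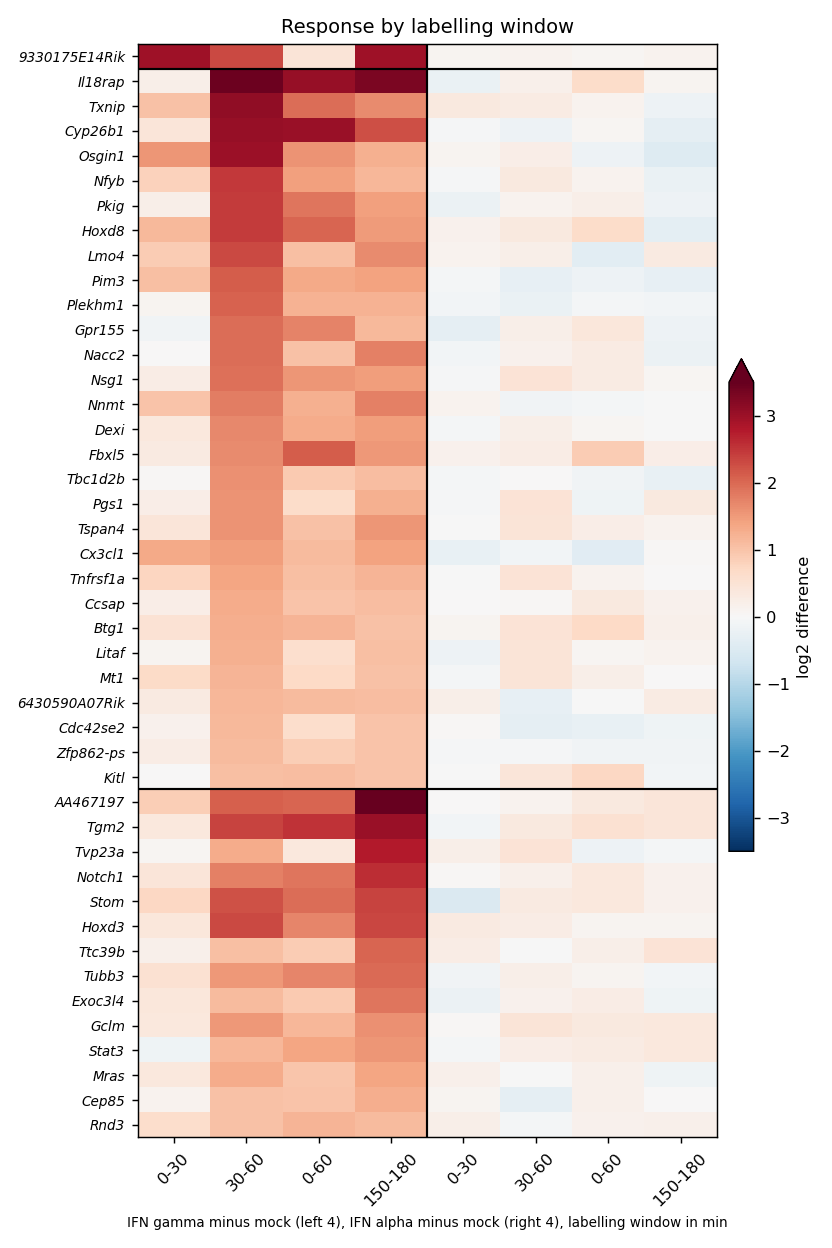
Log2 difference to mock of the 44 genes (rows) by labelling window in min (columns), for IFN gamma on the left and IFN alpha on the right; red is higher and blue lower than mock. Black lines separate genes with the largest IFN gamma difference at 0-30 min (1 gene), 30-60 min (29) and 150-180 min (14). Some genes are placed by near ties, with gaps under the SE. The colour scale ends at 3.5, which AA467197 at 150-180 min passes with 4.23. The 0-60 min columns were labelled at 200 µM 4sU.

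By role, grouped with the members known, 12 genes belonged to signalling and transcription, and all 12 were higher with IFN gamma than with mock at 0-60 min (median 1.36), 4 of them at 0-30 min. Of all genes tested 3.83% were called higher at 0-60 min and 0.754% at 0-30 min, and of the 44 genes of the set 39 and 9 were. Differences between roles were not tested. Hoxd8 and Hoxd3 are neighbours in the Hoxd cluster. At 0-60 min Hoxd8 had 9.04, 9.43 and 9.32 with IFN gamma, 7.63, 7.93 and 8.02 with IFN alpha, and 6.42, 7.48 and 7.78 with mock (2.04 ± 0.20, adjusted p = 7.9e-09). Hoxd3 had 5.11, 4.57 and 4.22 with IFN gamma, 3.11, 3.14 and 2.82 with IFN alpha, and 2.82, 3.14 and 2.81 with mock (1.71 ± 0.21, adjusted p = 3.9e-07), so both stood apart from the other groups, Hoxd3 over a background level. Notch1 differed by 1.86 ± 0.27 (adjusted p = 7.6e-06), Pkig, an inhibitor of protein kinase A, by 1.88 ± 0.22 (adjusted p = 2.4e-07), and Stat3 by 1.37 ± 0.24 (adjusted p = 0.00014). Mras, a Ras-related GTPase (0.97 ± 0.26), and Btg1, an antiproliferative gene (1.19 ± 0.21), belonged to the group too, as did Lmo4, Nacc2, Nfyb and Pim3.

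Of the 4 cytokine and receptor genes, 3 were higher with IFN gamma at 0-60 min, against 3.83% of all genes tested. Besides Il18rap and Cx3cl1, Tnfrsf1a, the receptor 1 of tumour necrosis factor, whose window holds the GAS letters printed above, had 10.03, 9.93 and 9.94 with IFN gamma, 9.13, 9.0 and 8.99 with IFN alpha, and 9.49, 8.58 and 8.64 with mock. Its IFN gamma arrays were above all others, by 1.06 ± 0.23 over mock (adjusted p = 0.0021). Cx3cl1 differed by 1.11 ± 0.32 (adjusted p = 0.031), with mock array 1 at 8.66 and its mates at 7.05 and 7.05, and by 1.65 ± 0.29 (adjusted p = 0.00017) without that array.

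Of the 10 metabolic and redox genes, 9 were higher with IFN gamma at 0-60 min and 2 (Osgin1 and Txnip) at 0-30 min, against 3.83% and 0.754% of all genes tested. Gclm, the modifier subunit of the enzyme that limits glutathione synthesis, differed by 1.17 ± 0.25 (adjusted p = 0.0022), Nnmt, nicotinamide N-methyltransferase, by 1.25 ± 0.26 (adjusted p = 0.0016), and Mt1 by 0.70 ± 0.18 (adjusted p = 0.013). Txnip differed by 1.96 ± 0.22 (adjusted p = 9.1e-08), and Pgs1, which makes a precursor of cardiolipin, by 0.64 ± 0.19 (adjusted p = 0.032). The gene without a call was Ttc39b (0.88 ± 0.32, adjusted p = 0.093). Another Ttc39b probe set, with a mean of 7.28, was called (1.01, adjusted p = 0.012), while its further ones past the filter were not (adjusted p = 0.067, 0.13 and 0.2).

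The 13 genes of membranes and the cytoskeleton had 0 calls at 0-30 min and 11 higher at 0-60 min, with medians of 0.15 and 1.00. In the whole set 9 and 39 of 44 genes were called higher, and of all genes tested 0.754% and 3.83%. Stom led them at 0-60 min (1.96 ± 0.23, adjusted p = 1.6e-07), followed by Gpr155 (1.73 ± 0.29) and Tubb3, a beta tubulin best known from neurons (1.72 ± 0.26), which passed the filter only with IFN gamma arrays. Tubb3 had 4.05, 5.71 and 5.75 with IFN gamma, 3.58, 3.52 and 3.54 with IFN alpha, and 3.84, 3.54 and 2.96 with mock, so its first IFN gamma array sat close to the others. Nsg1, an endosomal protein of neurons (1.53 ± 0.22), Plekhm1, an adaptor of late endosomes and lysosomes (1.21 ± 0.27), Tspan4 (1.04 ± 0.18), Ccsap, a centriole and spindle protein (1.00 ± 0.23), Cep85, a centrosomal protein (0.99 ± 0.20), Tbc1d2b, a Rab GTPase-activating protein (0.93 ± 0.23), Cdc42se2, an effector of CDC42 (0.62 ± 0.17), and Litaf were also called, all with adjusted p under 0.05. Exoc3l4, a relative of an exocyst subunit, was not (0.92 ± 0.32, adjusted p = 0.08).

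Among the 5 little described genes, 4 were higher with IFN gamma at 0-60 min, against 3.83% of all genes tested. They were AA467197, Dexi (1.31 ± 0.26, adjusted p = 0.00097), 6430590A07Rik (1.10 ± 0.31, adjusted p = 0.024) and Zfp862-ps (0.86 ± 0.23, adjusted p = 0.017). Calls that were lost in at least 1 fit with an array left out at 0-60 min were 9 of the 39: Pgs1 lost its call in 5 of 6 fits, 6430590A07Rik and Cx3cl1 in 4, Cdc42se2 and Zfp862-ps in 3, Litaf and Mt1 in 2, and Ccsap and Mras in 1. The other 30 kept it. Probe sets of 3 genes (Tgm2, Pgs1 and Pim3) have identifiers that mark possible cross-hybridisation and 4 identifiers mark probes shared by several transcripts. Of 41 other probe sets of the genes that passed the filter, 4 were called higher with IFN gamma at 0-30 min and 30 at 0-60 min. The shares among all probe sets are not given.

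Many of the genes lie beside other genes that IFN gamma moved. With 5 neighbours taken on each side in the RefSeq order of protein-coding genes and genes of the set, a number chosen after results were known, 20 of the 44 genes (45.5%) had a neighbour outside the set that was called higher with IFN gamma at 0-60 min, against 16% of the 9288 tested genes that could be placed and 31.7% of the 319 other genes called higher. On chromosome 16, Tvp23a, Ciita, Dexi, Clec16a and Socs1 follow each other, and Dexi overlaps Ciita in the gene table. The 3 Ciita probe sets lay between 2.18 and 3.81 on every array, under the filter. Socs1, the feedback inhibitor of JAK kinases, was 2.94 ± 0.34 higher with IFN gamma than with mock at 0-60 min (adjusted p = 1.3e-07), and Clec16a, which lies between Dexi and Socs1, differed by -0.52 ± 0.25 (adjusted p = 0.21). On chromosome 8, Mt1 and 9330175E14Rik are among each other's 5 neighbours, and Rspry1, called higher, is among those of both 9330175E14Rik and Cx3cl1. Exoc3l4 lies beside Tnfaip2, Pgs1 beside Socs3, Lmo4 near Gbp2, and Hoxd3 and Hoxd8 beside Hoxd9, each of these neighbours being called. Of the 44 genes 10 overlap another protein-coding gene in the table. The strand of these pairs was not checked, and whether a probe set also reads RNA of the overlapping gene was not tested.

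Other genes of the interferon response were counted from lists chosen with earlier results known, and no difference between a list and the set was tested. Of 21 tested textbook targets of IFN gamma, which hold no gene of the set, 13 were higher with IFN gamma than with mock at 0-30 min and 19 at 0-60 min (medians 2.49 and 3.04), and with IFN alpha 9 and 17 were (medians 0.99 and 3.133). Igtp and Irgm2, GTPases that act on pathogen vacuoles, were 7.40 ± 0.29 and 7.04 ± 0.24 higher with IFN gamma at 0-60 min, and 6.71 ± 0.29 and 6.62 ± 0.24 higher with IFN alpha. Of 31 antiviral genes of the type I response, 9 were higher and 1 lower with IFN gamma at 0-60 min (median 0.25), and 24 higher with IFN alpha (median 2.37). Among 19 targets of STAT3 and the IL-6 family, which include Stat3 and Pim3, 5 were higher and 1 lower with IFN gamma at 0-30 min, 10 higher and 3 lower at 0-60 min, and with IFN alpha 0 and 3 were higher. Socs3 (2.90 ± 0.15, adjusted p = 9.4e-16) and Il4ra (1.53 ± 0.20, adjusted p = 1.5e-06) were higher with IFN gamma at 0-60 min, and Lif was lower (-1.53 ± 0.29, adjusted p = 0.00046). Of 20 NF-kB targets 3 and 6 were higher with IFN gamma at 0-30 and 0-60 min, among them Tnfaip2 (2.94 ± 0.16 at 0-60 min, adjusted p = 3.3e-15), and 0 and 2 with IFN alpha. Of 10 cell death genes 0 and 5 were higher with IFN gamma, among them Ripk3, a kinase of necroptosis (2.01 ± 0.22 at 0-60 min, adjusted p = 6.8e-08), and 0 and 3 with IFN alpha. Of 23 HIF targets and glycolysis genes 0 were called with IFN gamma at 0-30 min, and 2 higher and 2 lower at 0-60 min, while 0 and 1 were higher with IFN alpha. Of 9 genes of the type I receptor and ISGF3 1 and 3 were higher with IFN gamma at 0-30 and 0-60 min, and 3 and 4 with IFN alpha. Among them Irf9 was 3.30 ± 0.17 higher with IFN gamma at 0-60 min (adjusted p = 1.5e-15) and 3.79 ± 0.17 higher with IFN alpha. Of 3 complement and protease inhibitor genes 1 was higher with IFN gamma in each window, Serpina3n (3.42 ± 0.27 at 0-60 min, adjusted p = 4.1e-11). It was also higher with IFN alpha at 0-60 min (1.31 ± 0.27, adjusted p = 0.0031).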

How the data were processed

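Newly transcribed RNA of NIH-3T3 cells was measured on 36 arrays, 3 for each of 12 groups of treatment and labelling window. The deposited table holds log2 values of 45101 probe sets, which the authors made with GCRMA, per the submitters' processing notes. Its version is not given in the sources used here, and the log2 scale was read from the values, which run from 1.34 to 14.82. The number of arrays limits the precision. Gene symbols came from the platform annotation: 34945 probe sets had 1 symbol, 932 several and 9160 none, and 64 controls were left out. Of those with 1 symbol, 34741 matched a GRCm38.p6 gene ID. The probe set with the highest mean over the 36 arrays stood for its gene.

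From these values, 12 group means were fitted with limma 3.58.1 in R 4.3.3 (lmFit, eBayes with an intensity trend) on the 9549 genes with log2 over 4 in at least 3 arrays. Adjusted p-values are Benjamini-Hochberg values over all of them, called under 0.05, two-sided, and the fit was tested on simulated data. The genes and lists were chosen with earlier results of these data known. Genes of the set were named by their place in it. Array values are given for the 5 largest and 3 smallest IFN gamma differences of each tested window, genes called with IFN alpha and the Hoxd pair, and those of Kitl, Stom, Mt1, Tubb3 and Tnfrsf1a were added after the values were seen. Deviations of same-numbered arrays from their group means correlated over 0.1 in 9 of 9 pairs at 0-30 min (0.205 to 0.651) and at 0-60 min (0.179 to 0.669), so the numbers were taken to pair arrays there. At 150-180 min 7 of 9 did. Alternatives changed the filter, scaling, probe sets, arrays, weights and block. Some results are not reported here.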

Additional observations from a re-analysis of the deposited data

Results flagged for a closer look

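In 11 of the 44 genes the difference between IFN gamma and mock at 0-60 min was not the same as that at 0-30 min, by limma's test of the difference between both windows (n = 3 arrays per group, adjusted over all genes). It was larger at 0-60 min by 2.85 in Il18rap, 2.58 in Cyp26b1, 2.16 in Tgm2, 1.85 in Gpr155, 1.81 in Fbxl5, 1.67 in Pkig, 1.52 in Stat3, 1.32 in Hoxd3, 1.26 in Nsg1 and 1.18 in AA467197, all on the log2 scale. In 9330175E14Rik it was smaller, by -2.49. The Stat3 probe sets disagreed: another was already 1.85 higher at 0-30 min and 2.12 higher at 0-60 min, and a further one differed by -0.07 and 1.23. Of these 11 calls, 6 held when any 1 of the 12 arrays compared was left out, while AA467197 lost its call in 11 of 12 such fits, Nsg1 in 9, Hoxd3 in 3, Cyp26b1 in 2 and Gpr155 in 1. The windows also differ in labelling time and 4sU concentration. For the genes with a larger difference at 0-60 min these cannot be told apart from the time after treatment. The 0-60 min window spans the 30-60 min interval in which the genes were chosen, which favoured a larger difference there. The 9330175E14Rik arrays with IFN gamma averaged 5.39 at 0-30 min, 4.76 at 30-60 min and 2.91 at 0-60 min. Its 0-60 min mean was thus lower than the means of both shorter windows that 0-60 min spans. The cause was not tested.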

How the results depend on the processing

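Counts of the 44 genes called higher moved by over 1.5 times under some alternatives. Shares of all genes are not given for most of them, so a change in the whole fit cannot be told apart. Leaving out 1 array here means an array of the groups compared. Mock array 1 of 0-60 min also entered the spread of other comparisons. Without it, IFN gamma against mock at 0-30 min gave 11 (0.869% of all genes). IFN gamma against IFN alpha then gave 10 at 0-30 min (0.618%) and 37 at 0-60 min (2.21%). For IFN gamma against mock at 0-30 min (9), array weights gave 17, probe sets, filter and fit from the 18 arrays of both tested windows gave 4, and leaving out 1 array gave 5 to 6. At 0-60 min (39), the arrays of that window alone gave 18, and leaving out 1 array gave 34 to 37. For IFN alpha against mock at 0-60 min (1), the count was 0 with no filter, with 16 added before log2, with a common median, with no intensity trend, with array weights, with the window's arrays alone, with the 18 arrays, with every probe set and with a 2-fold minimum. Leaving out 1 array gave 0 to 5. For IFN gamma against IFN alpha at 0-30 min (8), array weights gave 16, a 2-fold minimum 5 and leaving out 1 array 5 to 8. At 0-60 min (34), the window's arrays alone gave 13 and leaving out 1 array 30 to 34. For the change between windows (10), array weights gave 22, the 18 arrays 5 and leaving out 1 array 6 to 16. With the replicate block, which pairs arrays by number, the counts were 12 (without it 9), 43 (39), 0 (0), 3 (1), 11 (8), 40 (34) and 19 (10), in the order IFN gamma against mock, IFN alpha against mock and IFN gamma against IFN alpha, each at 0-30 and 0-60 min, and then the change between windows. The rule gave 16 genes with an IFN gamma minimum of 1.5 and 128 with 0.5, and 24 with an IFN alpha limit of 0.25 and 69 with 1. The 18-array fit and the comparison of windows were chosen after seeing the data. Of 1682 values recomputed for single genes and calls, 209 lost the call and 0 changed direction. The causes were not tested. Low signal limits genes with mock means under 4.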
